A study of Homo sapiens with 8 samples.

Results

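The nuclear genes for the respiratory chain and the mitochondrial ATP synthase were examined in BT549, a triple-negative human breast cancer cell line, grown attached to the dish or held in suspension. Members were the probe sets whose single gene symbol begins with the family names of complex I (NDUFA, NDUFB, NDUFC, NDUFS, NDUFV and the assembly factors NDUFAF), complex II (SDHA to SDHD and SDHAF), complex III (UQCR and CYC1), cytochrome c oxidase (COX) or ATP synthase (ATP5). In complex I a number must follow the family name, so NDUFAB1 is no member. The rule matched 106 probe sets. The pseudogenes ATP5F1EP2 and UQCRBP1 were left out, and the non-coding NDUFV1-DT was set apart (difference −0.10, adjusted p = 0.361 in limma). The remaining 103 probe sets stood for 95 genes, of 18417 genes measured through probe sets with 1 symbol. The attached group held 4 cultures and the suspended group 4, which the labels call biological replicates. The labels name no engineered allele in either group. Cells were grown in RPMI with 10% serum and insulin, and suspended cells were kept for 24 h on poly-HEMA, a coating to which cells cannot attach. For attached cells the labels give 24 h in the source name and the growth field but 48 h in the treatment field. If 48 h holds, a difference in culture time cannot be told apart from the difference in attachment. All cultures come from 1 established line, so the p-values speak to the spread between cultures of that line.

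The respiratory chain sits in the inner mitochondrial membrane. Complexes I and II pass electrons from NADH and succinate to coenzyme Q, complex III passes them on to cytochrome c, and complex IV hands them to oxygen. Complexes I, III and IV pump protons as they do so, and ATP synthase lets the protons flow back to make ATP. Most subunits are encoded in the nucleus, and the most hydrophobic ones in the mitochondrial genome, so assembly needs both sets along with dedicated assembly factors that leave no trace in the finished complex. The 13 mitochondrially encoded subunits are not analysed here. Also not analysed here are 14 nuclear genes that the rule names, among them NDUFS5, NDUFC2, SDHB, UQCRFS1, COX17 and ATP5F1E.

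The array data were even across samples. Signals are deposited values read as log2, so a difference of 1 is a doubling, and differences are given as suspended minus attached. Array medians lay between 6.02 and 6.07, and correlations over all probe sets were 0.995 to 0.996 among attached arrays, 0.993 to 0.996 among suspended arrays and 0.987 to 0.994 between the groups. Suspended replicates 4 and 1 had the lowest array weights in limma, 0.613 and 0.753. Signals under 5.28, the 25th percentile over gene means, are called weak here, with no detection call made. All 4 mesenchymal markers on the list, VIM, CDH2, FN1 and ZEB1, were above it in both groups. ESR1, PGR and CDH1, 3 of 6 luminal or epithelial markers, were below it in both groups. The others, ERBB2, EPCAM and KRT18, were above it, with means of 7.48, 5.47 and 8.16 attached and 7.53, 5.35 and 8.13 suspended. Of the markers of other cell types, 3 of 4 leukocyte, 2 of 3 endothelial, 1 of 3 adipocyte and 1 of 3 muscle genes were below it in both groups. The leukocyte marker above it, CD68, differed by −0.39 (adjusted p = 9.13e-05 in limma), while PTPRC, CD3E and LYZ, all below it, differed by 0.00, 0.10 and 0.07 and were not called. The sum of the log2 signals of these 4 was 20.70 to 21.20 in attached arrays and 20.57 to 20.72 in suspended arrays. Its part in the results was not tested.

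The first comparison asked which members differed between suspended and attached cells. In suspension 13 of the 95 genes fell and 0 rose. The genes that fell were NDUFB9, NDUFB10, NDUFS6 and NDUFV3 of complex I, its assembly factors NDUFAF2, NDUFAF4 and NDUFAF6, the complex II assembly factor SDHAF3, CYC1 and UQCRB of complex III, COX7B and COX10 of complex IV and its heme supply, and ATP5MC1 of ATP synthase. The changes were small, from 1.12-fold to 1.49-fold. A member was called when limma gave an adjusted p (Benjamini-Hochberg over all 18417 genes, two-sided) under 0.05, and over all genes this called 20.6%, with 10.2% lower and 10.4% higher. The share of members that fell, 13.7%, was near the share for all genes. For the absence of members that rose, the same limma fit at an unadjusted p under 0.05 gave 3 higher members and 23 lower ones, and 0 to 3 higher members were called over the 17 alternative settings.

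Small shifts below zero were common among the members that were not called. In all, 71 of 95 differences were below zero and 24 above, although with quantile normalization of the arrays it was 57 and 38. The median difference was −0.05 over members, or −0.02 with quantile normalization, against 0.02 over all genes. Differences were also compact: the median absolute difference was 0.0750 over members and 0.0918 over all genes. The 95% intervals of the 82 uncalled members lay between −0.44 and 0.38. Counting arrays alone, 17 members had every suspended array below every attached array and 2, SDHA and SDHC, the reverse, against 12.2% lower and 12.7% higher, 24.8% in all, over all genes.

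Signal strength bears on these shares, because brighter genes were called more often. Among the 9208 genes above the median signal, 18.0% fell and 15.6% rose. Of the 78 members there, 11 fell and 0 rose, and their median difference was −0.05 against 0.00 for all such genes. Among the 4604 brightest genes 23.1% fell and 16.6% rose, against 1.11% and 2.63% of the 4605 dimmest. Of the 56 members among the brightest 7 fell. Their median difference was −0.05, against −0.03 over all of the brightest genes.

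**Figure D1:**
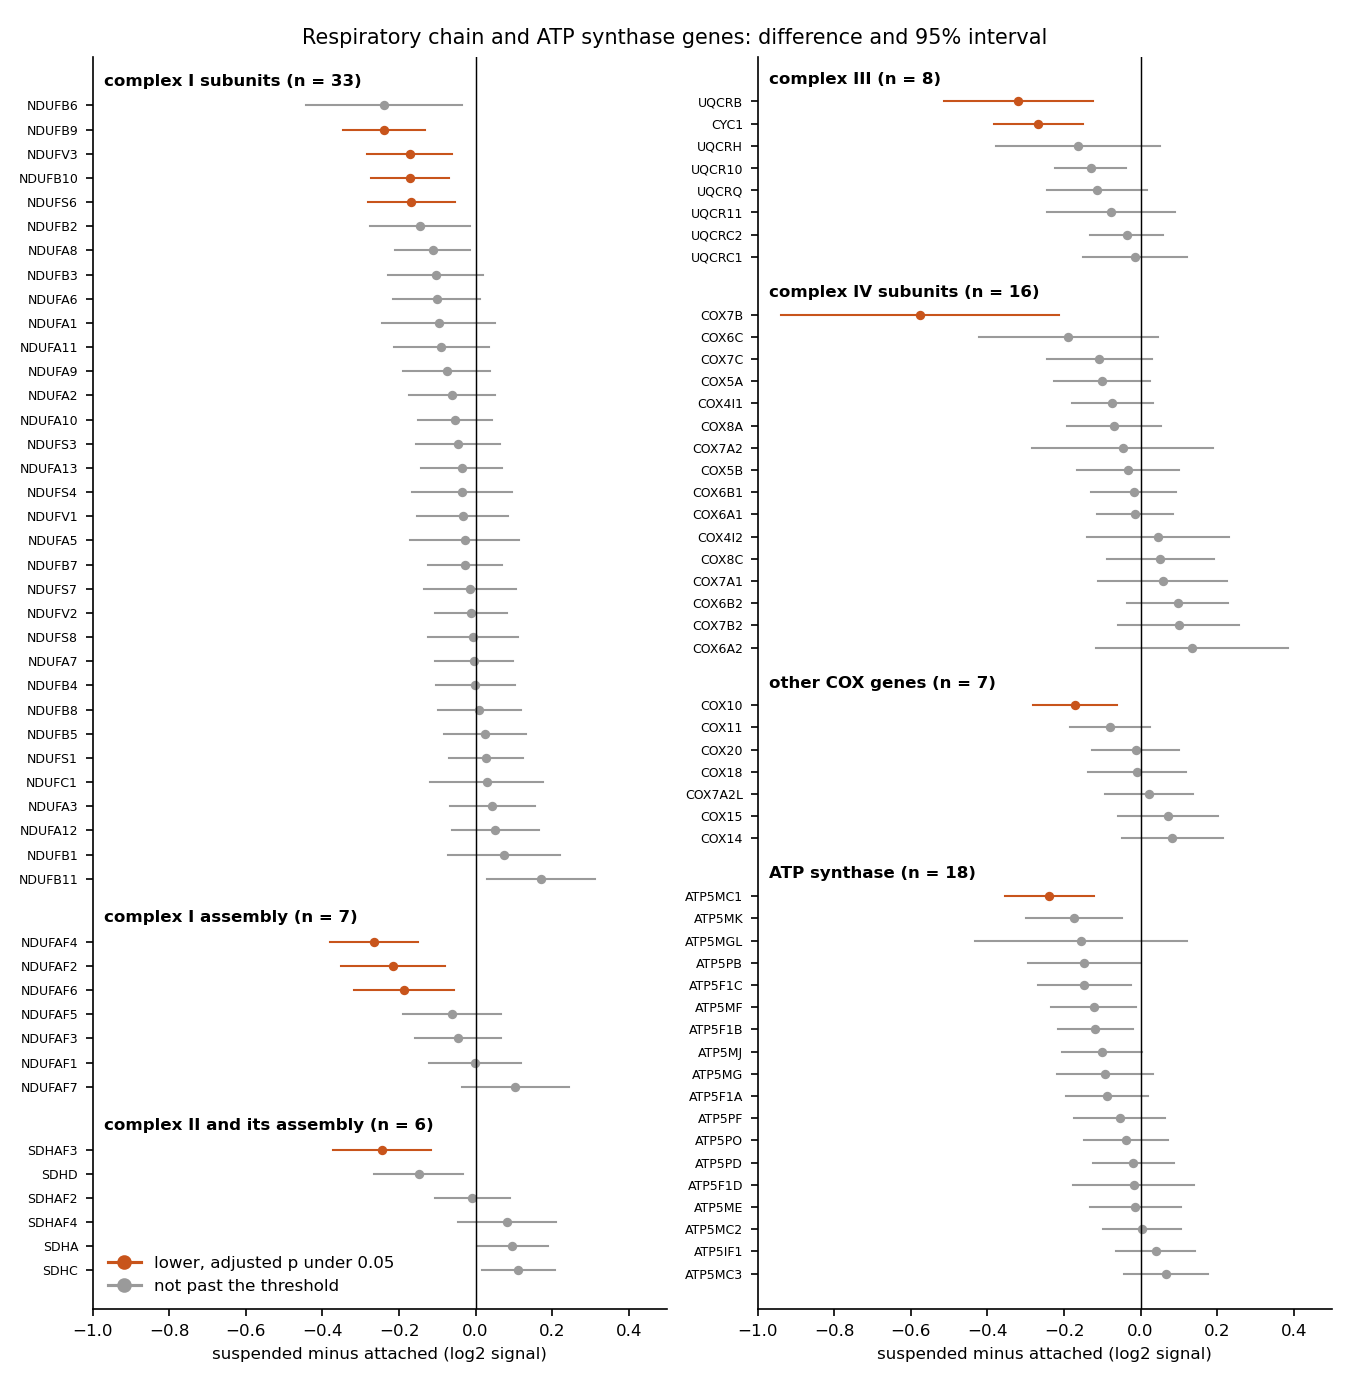
Each point is the log2 difference (suspended minus attached) of 1 of the 95 genes, grouped by complex, with its 95% interval as a line, in orange where limma called it lower and grey where not. The 13 called genes all lie below zero, from −0.58 to −0.17, and 71 of the 95 points are below zero (57 with quantile normalization).

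Complex I is the largest complex and takes electrons from NADH. Of its 33 subunits that are members, 4 fell and 29 were not called, with a median of −0.04. All 4 belong to the accessory subunits, which surround the catalytic core. NDUFAB1, also a complex I subunit, is outside this count. It is given with the electron carriers and fell by 0.29 (limma adjusted p = 0.0213). NDUFB9 and NDUFB10 sit in the membrane arm, while NDUFS6 and NDUFV3 sit in the arm that binds NADH. NDUFB9 read 10.21, 10.24, 10.21 and 10.14 in attached arrays and 9.91, 10.03, 9.99 and 9.90 in suspended ones. The groups did not overlap, and the difference was −0.24 (SE 0.0487, 1.18-fold, limma adjusted p = 0.00447). NDUFB10 read 8.05, 8.06, 8.16 and 8.10 attached and 7.92, 7.87, 7.96 and 7.94 suspended. Its groups were also apart, at −0.17 (SE 0.0465, limma adjusted p = 0.0224).

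NDUFV3 and NDUFS6 were nearer the threshold. NDUFV3 read 7.38, 7.39, 7.54 and 7.44 attached and 7.31, 7.21, 7.24 and 7.29 suspended, a difference of −0.17 (limma adjusted p = 0.0323). NDUFS6, which is needed for the last step in building the NADH-binding arm, read 8.03, 7.94, 7.87 and 8.02 attached and 7.75, 7.85, 7.77 and 7.82 suspended, a difference of −0.17 (limma adjusted p = 0.0404). In both genes every suspended array was below every attached array, but by a narrow margin. The call for NDUFB9 held whichever array was left out, and that for NDUFB10 was lost without attached 3, attached 4 or suspended 2 (differences over all 8 refits −0.19 to −0.15, adjusted p up to 0.0758). The call for NDUFV3 was lost without attached 3 or 4 or suspended 2 or 3 (−0.19 to −0.14, up to 0.101). For NDUFS6 it was lost in 6 of 8 refits, those without attached 1, 2 or 4 or suspended 1, 3 or 4 (−0.20 to −0.15, up to 0.117), with array weights (−0.16, adjusted p = 0.0626) and with quantile normalization (−0.14, adjusted p = 0.0793).

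The catalytic core showed no called change. NDUFS1, NDUFS3, NDUFS7, NDUFS8, NDUFV1 and NDUFV2 are its measured subunits. All but NDUFS3 carry the flavin or iron-sulphur clusters along which electrons travel. All 6 lay between −0.05 and 0.03, with 95% intervals from −0.16 to 0.12. The 23 uncalled accessory subunits lay between −0.24 and 0.17. NDUFB6, a membrane-arm subunit, had the largest uncalled difference, at 7.95, 7.78, 7.90 and 7.87 attached and 7.63, 7.76, 7.81 and 7.33 suspended. Suspended 4 was its lowest array, and the difference of −0.24 had an adjusted p of 0.0964 in limma. It was called lower among genes above the median signal (adjusted p = 0.0492) and without suspended 3 (−0.30, adjusted p = 0.0475). NDUFB11 went the other way by 0.17 (adjusted p = 0.0877 in limma), with 9.62, 9.87, 9.77 and 9.59 attached and 9.89, 9.91, 9.82 and 9.92 suspended. It was called higher under quantile normalization, under a variance prior that follows signal and among genes above the median signal.

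Of the 7 measured complex I assembly factors 3 fell. These proteins chaperone intermediates and are absent from the finished enzyme. NDUFAF2, NDUFAF4 and NDUFAF6 fell, and NDUFAF1, NDUFAF3, NDUFAF5 and NDUFAF7 were not called, with a median of −0.06 over the 7. NDUFAF4 read 9.60, 9.49, 9.63 and 9.49 attached and 9.26, 9.27, 9.26 and 9.36 suspended. This gave −0.27 (SE 0.0520, 1.20-fold, limma adjusted p = 0.00358) with no overlap, and the call held whichever array was left out. NDUFAF2, which stays bound to a late intermediate, read 7.21, 7.10, 7.16 and 7.02 attached and 7.00, 6.94, 6.92 and 6.76 suspended. The groups were apart by a small step and the difference was −0.22 (SE 0.0617, limma adjusted p = 0.0288). NDUFAF6 read 6.47, 6.45, 6.25 and 6.47 attached and 6.16, 6.30, 6.23 and 6.20 suspended. Attached 3 lay inside the suspended range, and the difference was −0.19 (SE 0.0594, limma adjusted p = 0.0456). NDUFAF7, an arginine methyltransferase, had the largest uncalled difference, 0.10 (adjusted p = 0.293).

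Those last calls depended on single arrays. NDUFAF2 lost its call without attached 1, 2 or 3 or suspended 3 or 4 (−0.25 to −0.17 over the 8 refits, adjusted p up to 0.0817). NDUFAF6 lost it without attached 1, 2 or 4 or suspended 1, 3 or 4 (−0.24 to −0.17, up to 0.124), with array weights (−0.16, adjusted p = 0.0967) and with the signal-following prior (adjusted p = 0.0574).

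Complex II, succinate dehydrogenase, belongs both to the respiratory chain and to the citric acid cycle. Only SDHAF3 fell among its 6 measured genes, and SDHB is not analysed here. SDHAF3, a factor that helps the iron-sulphur subunit mature, read 5.86, 5.91, 5.90 and 5.98 attached and 5.51, 5.71, 5.70 and 5.75 suspended. Each suspended array was below each attached array, and the difference was −0.25 (SE 0.0583, 1.19-fold, limma adjusted p = 0.0110), called in all 8 refits that left out an array. SDHAF2, which attaches the flavin to SDHA, differed by −0.01 (adjusted p = 0.913). SDHAF4, which guards flavinylated SDHA, differed by 0.08 (adjusted p = 0.363) at signals below 5.28 in every array.

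The subunits of complex II split in sign, and none was called. SDHA, the flavoprotein that oxidises succinate, read 9.39, 9.42, 9.44 and 9.41 attached and 9.48, 9.51, 9.51 and 9.54 suspended. Its groups did not overlap, yet 0.10 was too small for a call (adjusted p = 0.135 in limma). It was called higher with quantile normalization (0.15, adjusted p = 0.0291) and with the signal-following prior (adjusted p = 0.0419). SDHC, a membrane anchor, read 10.49, 10.47, 10.46 and 10.51 attached and 10.61, 10.54, 10.61 and 10.63 suspended, a difference of 0.11 (adjusted p = 0.0970). Again the groups were apart. It was called higher with quantile normalization (0.17, adjusted p = 0.0326), with the signal-following prior (adjusted p = 0.0140) and among genes above the median signal (adjusted p = 0.0343). SDHD, the other anchor, differed by −0.15 (adjusted p = 0.0722). It was called lower with array weights (−0.16, adjusted p = 0.0475), with the signal-following prior (adjusted p = 0.0219) and among genes above the median signal (adjusted p = 0.0283).

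The values for SDHC and SDHD depended on which of their 2 probe sets was read. The brighter probe set, which stands for the gene, is numbered among probe sets of another chromosome in both cases. For SDHC, a gene on chromosome 1, all 20 neighbours of that probe set by number belong to genes on chromosome 17, and for SDHD, on chromosome 11, all 20 belong to chromosome 1. The dimmer probe set of each is numbered among its own chromosome. For SDHC the dimmer probe set gave −0.12 (adjusted p over all probe sets = 0.157), opposite in sign to the brighter one, and for SDHD it gave 0.02 (adjusted p = 0.881). NDUFV2 and ATP5MK also have a brighter probe set numbered elsewhere, among chromosomes 19 and X, while RefSeq places the genes on 18 and 10. Their 2 probe sets gave −0.01 and −0.05 for NDUFV2, and −0.17 and −0.17 for ATP5MK. Both probe sets of NDUFB4 held identical values. For NDUFAF2 and COX6A1 the dimmer probe set is the one numbered elsewhere. Of all probe sets with 1 symbol, 98.19% are numbered among their own chromosome, and all 87 members with a single probe set are.

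**Figure D2:**
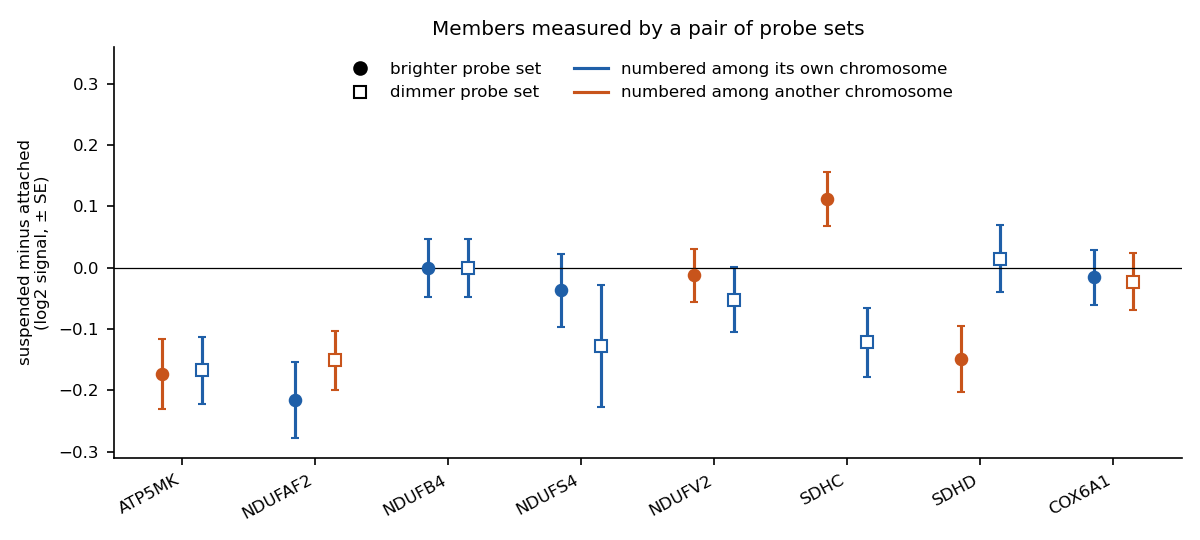
For the 8 members with 2 probe sets, the log2 difference (suspended minus attached) of each probe set is plotted ± its SE, the brighter one as a circle and the dimmer one as a square, in orange where it is numbered among another chromosome. SDHC has opposite signs, 0.11 and −0.12, while both probe sets of ATP5MK lie at −0.17.

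Complex III passes electrons from coenzyme Q to cytochrome c. CYC1 and UQCRB fell, and all 8 measured members were below zero (7 with quantile normalization), with a median of −0.12. CYC1 is cytochrome c1, the heme subunit that gives electrons to cytochrome c. It read 9.25, 9.45, 9.43 and 9.33 attached and 9.09, 9.09, 9.07 and 9.14 suspended. The suspended arrays were tight and all below the attached range, at −0.27 (SE 0.0531, 1.20-fold, limma adjusted p = 0.00395), a call kept in all 8 refits without an array. UQCRB, a small subunit near the coenzyme Q pocket, read 7.33, 7.01, 7.12 and 7.39 attached and 6.96, 7.00, 6.91 and 6.72 suspended. Attached 2 and suspended 2 nearly met, and the difference was −0.32 (SE 0.0890, 1.25-fold, limma adjusted p = 0.0254). The call was lost without attached 1, attached 4 or suspended 4 (−0.39 to −0.26 over the 8 refits, adjusted p up to 0.0754).

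Of the other complex III members, UQCR10 came nearest to a call. This small subunit read 8.74, 8.73, 8.74 and 8.68 attached and 8.60, 8.56, 8.59 and 8.61 suspended, a difference of −0.13 with an adjusted p of 0.0505 in limma and no overlap. It was called lower with median centring, array weights, the signal-following prior and both filters on weak genes. UQCRH, the hinge protein between cytochromes c1 and c, had the largest uncalled difference, −0.16 (adjusted p = 0.279), with overlapping groups. The core proteins UQCRC1 and UQCRC2 differed by −0.01 and −0.04, with adjusted p-values of 0.903 and 0.608.

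Cytochrome c oxidase, complex IV, reduces oxygen to water. Of its 16 measured subunits only COX7B fell, and it had the largest difference of any member. COX7B, a small subunit of the membrane part encoded on the X chromosome, read 7.20, 7.17, 7.48 and 7.23 attached and 6.19, 7.17, 6.84 and 6.56 suspended. The suspended arrays spread over almost a full log2 unit, and suspended 2 lay within the attached range. The difference was −0.58 (SE 0.165, 1.49-fold, limma adjusted p = 0.0290). It lost its call without attached 1, 3 or 4 or suspended 1 or 4, with differences of −0.74 to −0.41 over the 8 refits and adjusted p-values up to 0.0861.

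The general subunits of complex IV and the isoforms restricted to certain tissues lay on opposite sides of zero. All 10 general subunits were below zero (7 with quantile normalization) and all 6 isoforms (COX4I2, COX6A2, COX6B2, COX7A1, COX7B2 and COX8C) were above it, between 0.05 and 0.13, with 0 isoforms called or past an unadjusted p of 0.05 in limma. The median over all 16 was −0.03, or 0.02 with quantile normalization, under which the 6 isoforms were again above zero. Both means of COX6B2, COX7A1, COX7B2 and COX8C were below 5.28. With all genes sorted by mean signal into equal groups, the median differences were 0.02, 0.05, 0.03 and −0.03 from dimmest to brightest. The part of signal strength in the split between general subunits and isoforms was not tested. COX6A2, the heart and muscle form of subunit 6A, read 6.68, 6.69, 6.78 and 6.61 attached and 7.11, 6.68, 6.50 and 7.00 suspended, a difference of 0.13 (adjusted p = 0.457) in a widely spread suspended group. Its general partner COX6A1 differed by −0.02 (adjusted p = 0.849). COX4I1, the general form of subunit 4, differed by −0.07 (adjusted p = 0.319), and COX4I2, the form known for its role in lung and in low oxygen, by 0.05 (adjusted p = 0.753). COX7A2 differed by −0.05 and COX8A by −0.07. The 9 uncalled general subunits lay between −0.19 and −0.02. COX6C had the largest uncalled difference among the general subunits, −0.19 (adjusted p = 0.250). Its suspended arrays read 7.97, 8.11, 8.18 and 7.60, with suspended 4 again the lowest, against 8.23, 8.07, 8.22 and 8.09 attached.

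The subunit long called NDUFA4 and now counted with complex IV carries the symbol COXFA4 in the annotation and is no member by its name. COXFA4 differed by −0.13 (adjusted p = 0.204). Its paralogs COXFA4L2 and COXFA4L3 differed by 0.01 (adjusted p = 0.947) and 0.13 (adjusted p = 0.117), with COXFA4L3 below 5.28 in both groups.

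Among the 7 other COX genes, which build the enzyme or its supercomplexes, only COX10 fell. COX10 makes heme O, the precursor of the heme A that complex IV alone uses. It read 8.35, 8.39, 8.37 and 8.40 attached and 8.24, 8.27, 8.22 and 8.10 suspended, without overlap. The attached arrays were tight and the suspended ones more spread. The difference was −0.17 (SE 0.0497, 1.13-fold, limma adjusted p = 0.0305). The call was lost without any 1 of the 4 attached arrays, without suspended 3 or 4 (−0.19 to −0.14 over the 8 refits, adjusted p up to 0.0829) and with quantile normalization (−0.14, adjusted p = 0.0587). COX15, which makes heme A from heme O, differed by 0.07 (adjusted p = 0.438). COX11, which helps insert copper, differed by −0.08 (adjusted p = 0.273). COX14 had the largest uncalled difference, 0.08 (adjusted p = 0.380), and COX7A2L, which joins complexes III and IV, differed by 0.02 (adjusted p = 0.813).

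ATP synthase couples the return of protons to the making of ATP. Of its 18 measured genes 1 fell and 17 were not called, while 15 of 18 were below zero (12 with quantile normalization). The median was −0.09, or −0.05 with quantile normalization, under which 0 ATP synthase genes were called in limma, with 6 lower at an unadjusted p under 0.05 in the values as deposited. ATP5MC1 is 1 of 3 genes whose proteins all mature into the same subunit c, the piece repeated around the rotating ring. It read 11.84, 11.99, 11.92 and 11.91 attached and 11.64, 11.64, 11.63 and 11.79 suspended. Suspended 4 stood above the other suspended arrays but still under the attached range. The difference was −0.24 (SE 0.0531, 1.18-fold, limma adjusted p = 0.00778), and the call held whichever array was left out. It was lost with quantile normalization (−0.20, adjusted p = 0.0529).

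The 3 subunit c genes did not move alike. ATP5MC2 read 8.78, 8.79, 8.81 and 8.69 attached and 8.77, 8.79, 8.71 and 8.81 suspended, a difference of 0.00 (95% interval −0.10 to 0.11, adjusted p = 0.972). ATP5MC3 differed by 0.07 (95% interval −0.04 to 0.18, adjusted p = 0.388). The difference between these genes' responses was not itself tested. What pseudogene copies elsewhere in the genome add to these signals was not tested.

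The other ATP synthase parts showed small negative values without a call. The 4 measured genes of the catalytic F1 head, ATP5F1A, ATP5F1B, ATP5F1C and ATP5F1D, differed by −0.15 to −0.02. The 4 of the peripheral stalk, ATP5PB, ATP5PD, ATP5PF and ATP5PO, differed by −0.15 to −0.02 as well. The 6 small membrane subunits were all below zero, from −0.17 to −0.01, though 1 of them rose above zero with quantile normalization, as did 1 gene of the head and 1 of the stalk. ATP5F1B and ATP5F1C were called lower with the signal-following prior and among genes above the median signal, and ATP5MF with that prior. ATP5MK, which helps ATP synthases pair along the membrane, was the nearest of them to a call. It read 10.86, 10.87, 10.90 and 10.98 attached and 10.80, 10.70, 10.81 and 10.60 suspended, apart but by little, at −0.17 (limma adjusted p = 0.0537). It was called lower with median centring (−0.20, adjusted p = 0.0356), with the mean of its probe sets (−0.17, adjusted p = 0.0260), with the signal-following prior (adjusted p = 0.00909) and with weak genes left out. ATP5MG, subunit g, differed by −0.09 (adjusted p = 0.293), and its paralog ATP5MGL by −0.16 (adjusted p = 0.433). ATP5IF1, the inhibitor that stops the enzyme from running backwards, differed by 0.04 (adjusted p = 0.605).

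**Figure D3:**
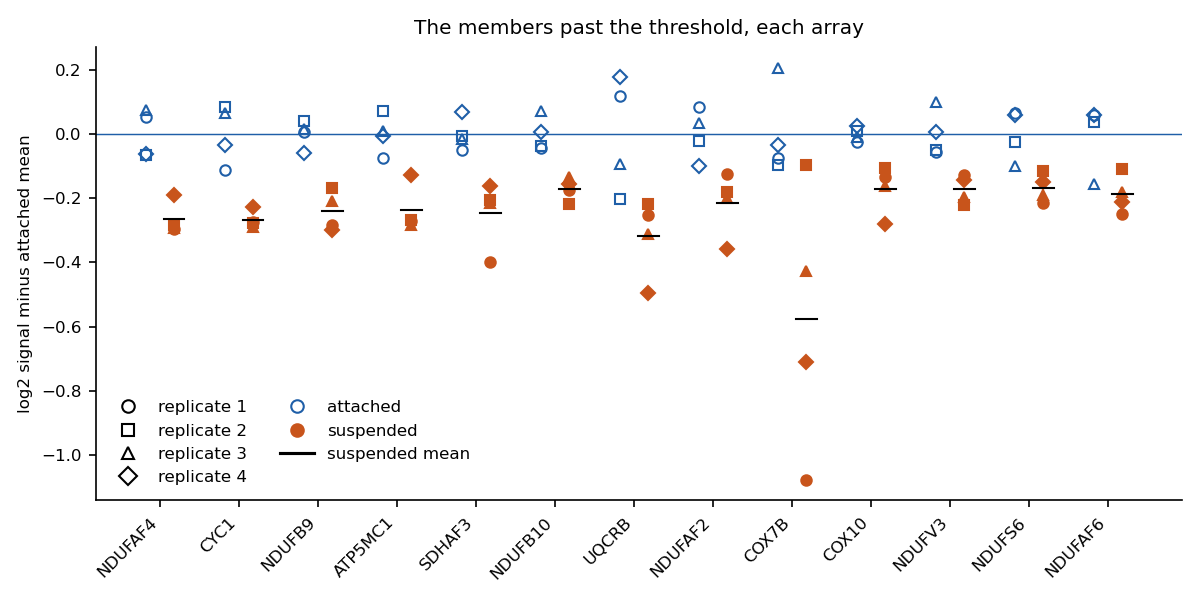
Log2 signal minus the attached mean for the 13 called genes, with 1 point per array (open for attached, filled for suspended, shaped by replicate number) and a bar at the suspended mean. Groups are apart for 11 genes and overlap for COX7B and NDUFAF6, where suspended 2 and attached 3 reach into the other group.

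Building factors and finished subunits were counted apart. Of 78 structural subunits 8 fell (10.3%), and of 17 assembly and related factors 5 fell (29.4%), against 10.2% lower over all genes. The median difference was −0.05 for the subunits and −0.01 for the factors. No test compared the classes. Of the 13 calls, NDUFAF4, NDUFB9, CYC1, SDHAF3 and ATP5MC1 held in all 8 refits, and the other calls were lost in 3 to 6 of them.

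Each array's deviation from the attached mean had a median over members of −0.01 to 0.01 in attached arrays and −0.05 to −0.02 in suspended arrays. Over all genes the suspended medians were −0.0037 to 0.03, above zero in 3 of 4 arrays. For ATP synthase the suspended medians were −0.11 to −0.03. Suspended 2 was the nearest to the attached arrays and was the lowest suspended array for 13 members, 13.7%, against 28.2% of all genes.

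**Figure D4:**
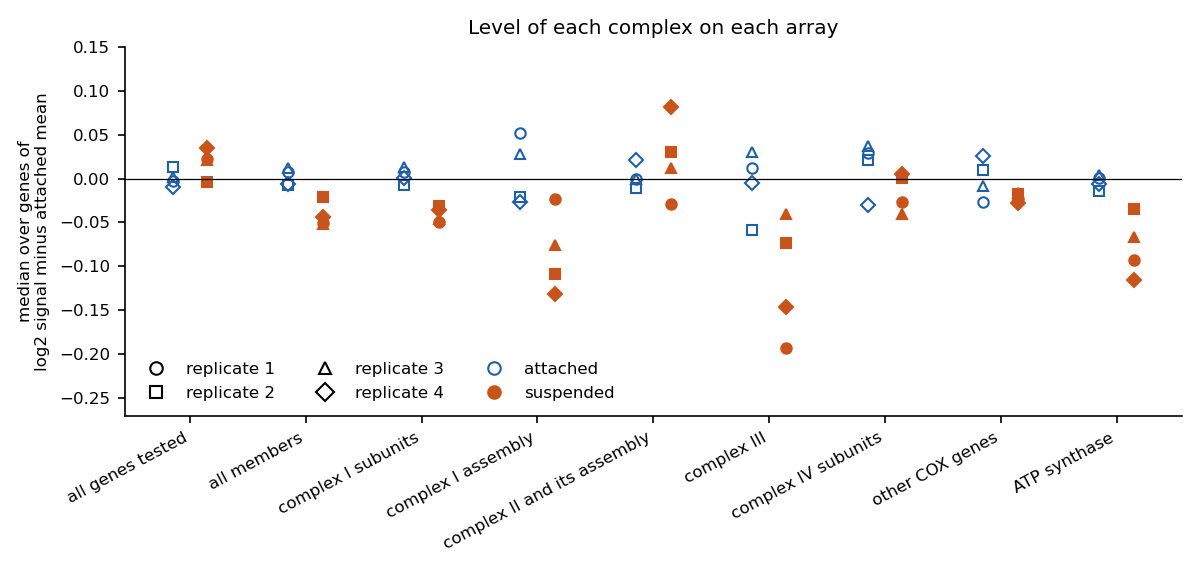
Median over genes of log2 signal minus the attached mean, for all genes and for each group of members, with 1 point per array (open for attached, filled for suspended). Suspended arrays lie below attached arrays for all members together, at −0.05 to −0.02, while those for all genes lie at −0.0037 to 0.03.

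Promoters of members are known for sites of NRF1, of ETS family factors such as GABPA and of YY1, all regulators of nuclear genes for mitochondria. RefSeq promoter windows (GRCh38.p14, from 250 bases before to 50 after the start) were at hand for 80 of the 95 members, among 14239 genes. Letters were searched on both strands: GCGCA, any base and then GCGC for NRF1, CCGGAAG for ETS factors and AAGATGGC for YY1, with GGGCGG for SP1. NRF1 letters were found in 25% of member windows and 8.92% of all windows. ETS letters were found in 30.0% and 14.6%, and YY1 letters in 13.8% and 4.07%. SP1 letters were found in 58.8% and 60.0%. Of the 9 called members with a window, 1 held NRF1 letters, 3 ETS, 1 YY1 and 6 SP1, and of the 71 uncalled ones 19, 21, 10 and 41 did. A match is a run of letters and not a measured site.

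The windows of 4 called members are shown because they span these patterns, from several matches to none. Among the 9 called members with a window, only SDHAF3, COX10 and NDUFAF4 hold NRF1, ETS or YY1 letters. ATP5MC1 stands for the others, which hold none. Capitals mark NRF1, ETS and YY1 letters on either strand, and each sequence runs 5′ to 3′ along the gene. SDHAF3 lies at chr7:97117448-97117747 on the plus strand, COX10 at chr17:14069254-14069553 (plus), NDUFAF4 at chr6:96897842-96898141 (minus) and ATP5MC1 at chr17:48892537-48892836 (plus). SDHAF3 holds the NRF1 letters at 2 places and ETS letters once, COX10 holds ETS letters at 2 places and YY1 letters once, NDUFAF4 holds ETS letters once, and ATP5MC1 holds none of the 3.
SDHAF3: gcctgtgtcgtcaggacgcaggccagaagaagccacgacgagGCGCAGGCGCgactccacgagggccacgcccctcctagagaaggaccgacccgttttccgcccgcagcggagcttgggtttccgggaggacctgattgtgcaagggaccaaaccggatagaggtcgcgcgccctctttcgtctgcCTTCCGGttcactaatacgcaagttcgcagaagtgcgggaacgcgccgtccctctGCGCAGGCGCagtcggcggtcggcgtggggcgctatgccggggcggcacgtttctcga
COX10: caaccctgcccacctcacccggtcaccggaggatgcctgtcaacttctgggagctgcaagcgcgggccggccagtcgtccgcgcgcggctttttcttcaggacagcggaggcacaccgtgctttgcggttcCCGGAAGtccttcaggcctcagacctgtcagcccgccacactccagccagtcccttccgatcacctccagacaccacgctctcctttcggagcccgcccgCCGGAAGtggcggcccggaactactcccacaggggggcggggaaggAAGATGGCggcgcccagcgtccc
NDUFAF4: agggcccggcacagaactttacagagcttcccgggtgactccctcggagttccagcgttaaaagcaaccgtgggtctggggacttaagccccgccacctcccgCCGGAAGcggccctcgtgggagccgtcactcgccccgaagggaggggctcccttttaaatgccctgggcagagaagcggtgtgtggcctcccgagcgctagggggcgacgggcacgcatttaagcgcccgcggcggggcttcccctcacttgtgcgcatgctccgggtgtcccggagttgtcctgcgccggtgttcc
ATP5MC1: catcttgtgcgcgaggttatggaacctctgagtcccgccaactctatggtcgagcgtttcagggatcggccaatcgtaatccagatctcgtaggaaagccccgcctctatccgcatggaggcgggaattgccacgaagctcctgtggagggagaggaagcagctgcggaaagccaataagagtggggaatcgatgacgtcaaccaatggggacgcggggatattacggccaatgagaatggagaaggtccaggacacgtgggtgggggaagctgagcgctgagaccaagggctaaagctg

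These 4 genes fell by 0.25, 0.17, 0.27 and 0.24 on the log2 scale, in the order shown, with different letters in their windows. Any link between letters and signal was not tested.

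Genes that work beside the members were read from lists of related functions, and their counts stand against 10.2% lower and 10.4% higher over all genes, or 18.0% and 15.6% among genes above the median signal. No test set a list against other genes. Of 37 measured assembly factors outside the rule (40 listed), 11 fell (29.7%) and 1 rose, with a median of −0.08. CMC2, a complex IV factor, fell by 0.29 (limma adjusted p = 0.00174), and BCS1L, which inserts the Rieske protein into complex III, by 0.26 (adjusted p = 0.00451). HIGD1A, which binds complex IV, fell by 0.25 (adjusted p = 0.00601), a call lost when the probe set numbered on its own chromosome was used (−0.22, adjusted p = 0.0557). SCO1, a copper carrier for complex IV, fell by 0.27 (adjusted p = 0.00997). TTC19, which clears fragments of the Rieske protein from complex III, rose by 0.17 (adjusted p = 0.0271). This call was lost with median centring (0.14, adjusted p = 0.0590) and without attached 2, 3 or 4 or suspended 1 or 4 (adjusted p up to 0.0878).

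Among electron carriers and their feeders 3 of 12 genes fell (25%) and 2 rose, with a median of −0.03 (0.0017 with quantile normalization). CYCS, cytochrome c, the carrier between complexes III and IV, was 7.87 attached and 7.41 suspended and fell by 0.46 (SE 0.0751, limma adjusted p = 0.00114). DHODH, which feeds electrons from pyrimidine synthesis to coenzyme Q, fell by 0.32 (adjusted p = 0.00351). NDUFAB1, the acyl carrier protein that is also a complex I subunit, fell by 0.29 (adjusted p = 0.0213). SQOR, which feeds electrons from sulphide, rose by 0.33 (adjusted p = 0.00111) from a mean of 5.12, under 5.28, to 5.45. ETFB, an electron-transfer flavoprotein subunit, rose by 0.18 (adjusted p = 0.0209), a call lost without attached 1 or 4 or suspended 1 (adjusted p up to 0.0624).

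In coenzyme Q synthesis 1 of 13 genes fell and 0 rose in limma, with 3 higher and 3 lower at an unadjusted p under 0.05. PDSS1, which makes the side chain of coenzyme Q, was 9.21 attached and 8.67 suspended and fell by 0.54 (SE 0.0522, adjusted p = 2.67e-05). COQ3, COQ7 and COQ2, which modify its ring, differed by −0.29 (adjusted p = 0.0556), 0.15 (adjusted p = 0.0615) and −0.13 (adjusted p = 0.0985). COQ3 was called lower with median centring (−0.31, adjusted p = 0.0367), quantile normalization (−0.31, adjusted p = 0.0434), the signal-following prior (adjusted p = 0.0423) and genes above the 25th percentile (adjusted p = 0.0433). COQ7 was called higher among genes above the 25th percentile (adjusted p = 0.0420) and without attached 1 (0.19, adjusted p = 0.0271). COQ2 was called lower among genes above the median (adjusted p = 0.0406) and without suspended 4 (−0.16, adjusted p = 0.0492).

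Of 21 regulators of mitochondrial gene expression 7 fell (33.3%) and 1 rose, with a median of −0.13. TWNK, the mitochondrial DNA helicase, fell by 0.34 (limma adjusted p = 0.000398). PPRC1, a coactivator of the PGC-1 family, fell by 0.39 (adjusted p = 0.000454). TFB2M, which starts transcription of mitochondrial DNA, fell by 0.31 (adjusted p = 0.00120), and SLIRP, which protects mitochondrial mRNA, by 0.26 (adjusted p = 0.00247). TFAM, TFB1M and MTERF3 were the other genes that fell, by 0.28, 0.34 and 0.28. PPARGC1A, the PGC-1 alpha coactivator, rose by 0.34 (adjusted p = 0.00277), though both its means, 4.16 and 4.50, were below 5.28.

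The supply of electrons was mixed. In the citric acid cycle 2 of 12 measured genes fell (16.7%) and 1 rose, with a median of −0.09 (−0.05 with quantile normalization). SUCLG2, a succinate-CoA ligase subunit, fell by 0.32 (limma adjusted p = 0.00389). IDH3A, a subunit of the NAD-linked isocitrate dehydrogenase, fell by 0.19 (adjusted p = 0.0167). Its call was lost with quantile normalization (−0.14, adjusted p = 0.0813) and without attached 3 (−0.17, adjusted p = 0.0586). The other subunits of that enzyme, IDH3B and IDH3G, differed by −0.13 and 0.11 and were not called. IDH2, the NADP-linked form, rose by 0.35 (adjusted p = 0.00680), and SUCLG1 differed by −0.17 (adjusted p = 0.0694), called lower with the signal-following prior (adjusted p = 0.0434) and among genes above the median (adjusted p = 0.0289). At pyruvate entry 1 of 12 measured genes fell and 2 rose, with a median of 0.05 (0.03 with median centring and 0.08 with quantile normalization). PDK2, a kinase that shuts the pyruvate dehydrogenase complex, rose by 0.52 (SE 0.0684, adjusted p = 0.000260), and PDP1, the phosphatase that opens it, rose by 0.26 (adjusted p = 0.00341). DLAT, the E2 component of that complex, fell by 0.24 (adjusted p = 0.00229), and PDK4 differed by 0.15 (adjusted p = 0.0859).

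**Figure D5:**
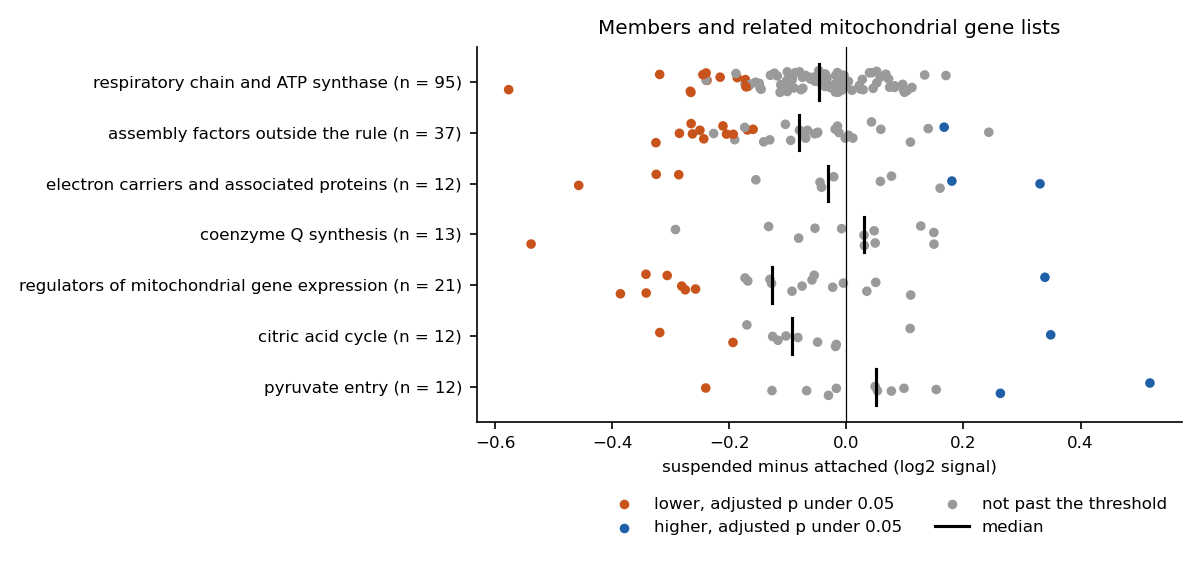
Log2 differences (suspended minus attached) of the members and of 6 lists of related genes, 1 point per gene, coloured by call, with the median of each list. Regulators of mitochondrial gene expression have the lowest median, −0.13, and pyruvate entry the highest, 0.05 (0.03 with median centring and 0.08 with quantile normalization).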

How the data were processed

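Gene expression was measured on arrays in 4 attached and 4 suspended cultures, grouped by their labels. The authors deposited 1 table of 33297 probe sets by 8 arrays. Its values were read as log2 from their size, since neither headers nor labels state the scale of the deposited values. The submitters' processing notes name Partek. No source used here gives the background correction, the normalization or a genome build. Per the labels, 1 µg of TRIzol RNA was labelled with a biotin kit. That kit is meant for small RNA while the table holds gene-level values, which leaves the labelling behind them uncertain. No normalization was added.

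Gene names came from the platform annotation: 19460 probe sets had 1 symbol, 1754 several and 12083 none, and those with 1 symbol were used. The brightest probe set stood for a gene with several. All 95 member symbols matched RefSeq (GRCh38.p14). The suspended and attached groups were set against each other in limma (version 3.58.1, lmFit then eBayes, in R 4.3.3), two-sided, with Benjamini-Hochberg adjustment over 18417 genes, a threshold of 0.05 and intervals of 95%. Summaries used pandas 2.3.3 and numpy 2.4.6 and figures matplotlib 3.10.9, under Python 3.11.15. SE is limma's moderated standard error. The fit was tested on simulated data with 18417 genes, where 80% of 100 genes set to differ 1.25-fold and 100% of 100 set to differ 2-fold were called, along with 9 unchanged genes. The number of arrays limits the precision. Same-numbered attached and suspended arrays deviated with correlations of −0.198 to 0.0416, and differently numbered ones with −0.203 to 0.256. Numbers were not taken as pairs, though these correlations cannot exclude a pairing.

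The alternatives were median centring, quantile normalization, 2 filters on weak genes (25th percentile and median of gene means), the mean of probe sets, array weights, a variance prior that follows signal, a replicate block, leaving out each array, and a choice of probe set by chromosome that was added after seeing the data.

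Genes were named by rule: all of complex II, and in each other group the 6 called members with the smallest adjusted p and the uncalled member with the largest absolute difference. Isoform sets, genes whose probe sets differ in sign or call, members of counts of 5 or fewer, and the 4 smallest adjusted p-values of each related list were also named. The members and lists were chosen with earlier results of these data known. UQCR10, NDUFB11 and other near-threshold or single members outside this rule, MTERF3, TFAM, TFB1M, IDH3B, IDH3G and the remaining members named by subunit role were picked after their values were seen.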

Additional observations from a re-analysis of the deposited data

Results flagged for a closer look

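In 6 of 140 groups of 4 arrays (70 named genes in 2 groups), a single array stood apart from the other 3 by Dixon's test at the 95% level, and chance gives about 1 in 20. Suspended 4 was the odd array in 3 of them. It was the highest for ATP5MC1, at 11.79 against 11.63 to 11.64 (the call held without it), and for NDUFAF4, at 9.36 against 9.26 to 9.27 (also held). It was the lowest for CMC2, at 10.10 against 10.21 to 10.22. Attached 3 was the lowest for NDUFAF6, at 6.25 against 6.45 to 6.47, attached 4 the lowest for COX8C, at 3.89 against 4.08 to 4.09, and attached 1 the lowest for SUCLG2, at 6.42 against 6.61 to 6.64.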

How the results depend on the processing

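No called member changed sign under the 17 alternatives (SDHAF3 and NDUFAF6 were not tested among genes above the median), but many of these could not change a sign. The 2 filters on weak genes, the signal-following prior and the replicate block leave a gene's difference as it is. The choice by chromosome kept the probe set of every called member. Where groups do not overlap, leaving out an array cannot change the sign either. Counts and medians moved, and the cause was not tested. With median centring the median was −0.069 over members, −0.059 in complex I and −0.032 in other COX genes, and 2 ATP synthase genes fell. With quantile normalization these medians were −0.020 over members, −0.020 in complex I, 0.019 in complex IV and −0.050 in ATP synthase. There 3 members rose (1 in complex I, 2 in complex II) and 0 fell in ATP synthase and in other COX genes. Among genes above the 25th percentile the complex II and IV medians were −0.0091 and −0.059 and 2 ATP synthase genes fell, and among genes above the median the complex IV and complex I assembly medians were −0.070 and −0.22. There 2 members rose (1 in complex I, 1 in complex II) and 4 ATP synthase genes fell, with fewer genes tested. With the mean of probe sets the complex II median was −0.0070 and 2 ATP synthase genes fell. Array weights gave 2 lower in complex II. The signal-following prior gave 3 higher members (1 in complex I, 2 in complex II), 2 lower in complex II and 5 in ATP synthase.

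Arrays of the same number were not taken as pairs in the main fit. With the replicate block 8 members fell, 2 in complex I, 1 in complex III and 0 in other COX genes, and COX10, NDUFAF6, NDUFS6, NDUFV3 and UQCRB lost their calls. Leaving out each array gave 6 to 11 lower and 0 to 1 higher members. By group, 1 to 3 fell in complex I (0 to 1 rose, median −0.047 to −0.027), 1 to 3 in its assembly, 1 to 2 in complex II, 1 to 2 in complex III, 0 to 1 in complex IV, 0 to 1 in other COX genes (median −0.025 to 0.021) and 1 to 3 in ATP synthase (median −0.107 to −0.061). The probe set chosen by chromosome gave the same 13 calls. It replaced the probe set of only 4 members, SDHC, SDHD, NDUFV2 and ATP5MK, none of them called. It therefore put no other probe set to the 13 calls. The number of arrays limits what small differences can show.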

Other observations

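Of the 5 members on chromosome 8, 4 fell (CYC1, NDUFB9, UQCRB and NDUFAF6) and COX6C was not called. Over the 638 genes measured there 12.5% fell. This grouping was chosen after the values were seen and was not tested. RefSeq names 198 pseudogenes after members, and 50 members, 8 of them called, have at least 1. Their share of the array signals was not tested.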
